A study of Mus musculus with 6 samples.

Results

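Cholesterol and fatty acid synthesis was followed through 28 genes in cultured mouse muscle stem cells, the cells from which skeletal muscle regenerates. The genes were taken by exact match of their symbol in a deposited table of 43283 genes, and all 28 were found. Cells of both groups came from the hindlimb muscles of female C57BL/6 mice, given as 8 to 12 weeks old in the sample labels and as 2 to 4 months old in the series text. They had been sorted as positive for α7-integrin and CD34 and negative for CD11b, CD31, CD45 and Sca1. The culture medium held 20% fetal bovine serum. The Vehicle group (3 libraries) received DMSO for 24 h and the PGE2 group (3 libraries) received prostaglandin E2, a lipid mediator of inflamed tissue, for 24 h. The dose of PGE2 is not given in the sources used here, nor is it said whether the 3 libraries of a group came from separate animals, so the p-values cover only how these libraries vary, and that variation could be technical. RNA came from 5000 to 10000 cells and was amplified before sequencing. By its title, the series asks what PGE2 does for these cells, and the comparison here is PGE2 against Vehicle.

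Cholesterol is made from acetyl-CoA through mevalonate, farnesyl diphosphate and squalene, the last of which is closed to lanosterol and trimmed to cholesterol. Fatty acids are built from the same acetyl-CoA, by carboxylation to malonyl-CoA and chain extension. Both branches are governed by the SREBP transcription factors, which are held in the endoplasmic reticulum by Insig proteins while sterols are plentiful and which bind sterol regulatory elements together with the factor NF-Y. Fetal bovine serum carries lipoprotein cholesterol, and cells that are about to divide also make lipid themselves.

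Promoter sequences are shown first because a common control by SREBP and NF-Y is the best known feature of these genes. RefSeq promoter windows (GRCm38.p6, 250 bases before to 50 after a start site) were found for 22 of the 28 genes. The NF-Y box CCAAT, searched on both strands, was in a window of 19 of these 22 (86.4%), of 43.3% of the 8421 genes tested here that have a window and of 41.1% of all 27025 genes with one. The genes without it were Acat2, Acaca and Elovl6, and Mvk held the most copies, 5. The sterol regulatory element form TCACNCCAC, also searched on both strands, was in the window of Hmgcs1 alone (1 of 22, 4.55%, beside 1.40% of the tested genes with a window). Its shorter form CACNCCAC, which overlaps it, was in 3 of 22 (Acat2, Hmgcs1 and Insig1; 13.6%, beside 7.53% of the tested genes with a window). These are letter matches in a short window, with no measurement of binding. The 180 bases before the start site follow for 4 genes. Hmgcs1 and Fasn are pathway enzymes of the sterol and the fatty acid branch, and the values of Srebf1 and Pmvk separated the groups. Values of Acly did so too, but Acly is not shown, and its only CCAAT lies after the start site. Capitals mark CCAAT or its complement ATTGG and, in Hmgcs1, TCACCCCAC. In Fasn a CCAAT and an ATTGG overlap in CCAATTGG. Pmvk has 2 RefSeq windows, and the one shown was picked because it holds the box, which the other lacks.
Hmgcs1 (chr13:119690171-119690350, plus strand): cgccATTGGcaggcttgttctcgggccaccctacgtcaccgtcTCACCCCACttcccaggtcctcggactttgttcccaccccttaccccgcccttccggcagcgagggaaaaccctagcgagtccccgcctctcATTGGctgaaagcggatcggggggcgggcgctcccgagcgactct
Fasn (chr11:120824548-120824727, minus strand): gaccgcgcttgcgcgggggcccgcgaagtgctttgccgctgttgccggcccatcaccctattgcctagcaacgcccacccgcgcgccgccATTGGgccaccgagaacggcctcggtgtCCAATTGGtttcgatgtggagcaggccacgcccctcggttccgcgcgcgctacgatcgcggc
Srebf1 (chr11:60210472-60210651, minus strand; of its 3 RefSeq starts, the one with the box nearest to it): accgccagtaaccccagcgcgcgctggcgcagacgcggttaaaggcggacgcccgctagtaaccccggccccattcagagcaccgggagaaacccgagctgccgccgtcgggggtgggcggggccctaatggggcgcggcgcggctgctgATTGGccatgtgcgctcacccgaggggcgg
Pmvk (chr3:89454361-89454540, plus strand): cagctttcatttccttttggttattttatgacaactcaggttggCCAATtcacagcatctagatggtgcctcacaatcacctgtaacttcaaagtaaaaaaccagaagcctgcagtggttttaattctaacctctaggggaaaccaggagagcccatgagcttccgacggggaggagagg

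No gene of the pathway passed the test between PGE2 and Vehicle, and the summed level of the mevalonate and sterol enzymes was 169.8 TPM in Vehicle and 166.9 TPM in PGE2, a difference whose sign changed with the library left out. The transcription factor gene Srebf1 and the mevalonate enzyme gene Pmvk had all PGE2 libraries below all Vehicle libraries, and Acly, whose product supplies acetyl-CoA to both branches, had all of them above. Such shares of the pathway's tested genes, 7.69% lower and 3.85% higher, were near those of all tested genes, 4.84% and 3.18%. The fatty acid synthase gene Fasn spanned a 13.96-fold range within the PGE2 group and a 1.42-fold range within Vehicle. Lss, of the sterol branch, spanned 14.62-fold and 1.52-fold ranges in the same order. Pmvk and Tm7sf2 each held a 0 in PGE2, so they have no such ratio there. A larger SD in PGE2 than in Vehicle (log2 scale) was common, found for 69.5% of all tested genes. Levels are taken as TPM, a unit inferred from column sums, which is a share of the library corrected for transcript length. They are set side by side between genes on that footing. The RNA was amplified, and what this did to levels between genes was not tested. Read depth is unknown, since TPM does not keep it.

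Of the 28 genes, 26 had at least 1 TPM in at least 3 libraries and were tested among 12781 genes with limma on log2(TPM + 1). None of the 26 passed at a Benjamini-Hochberg adjusted p of 0.05 (smallest 1.00), as none of all tested genes did (0%). At an unadjusted p under 0.05 the count was 0 of 26, beside 3.63% of all tested genes. The fitted value was higher with PGE2 for 12 and lower for 14, with a median log2 change of -0.04 (all tested genes -0.07). The groups did not overlap with PGE2 higher for 1 of 26 (3.85%, all tested genes 3.18%) and with PGE2 lower for 2 of 26 (7.69%, all tested genes 4.84%), shares near the background. The 95% confidence intervals, which are not adjusted for the number of genes, had a median half-width of 1.13 in log2 units, a 2.18-fold difference. A fitted change smaller than its gene's own half-width has an interval that includes 0, and larger ones could still miss the adjusted threshold. In simulated data with each gene's own spread, the test recovered 0% of genes of 5 TPM or more given a log2 change of 1, 24.5% at 2 and 77% at 3.

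**Figure D1:**
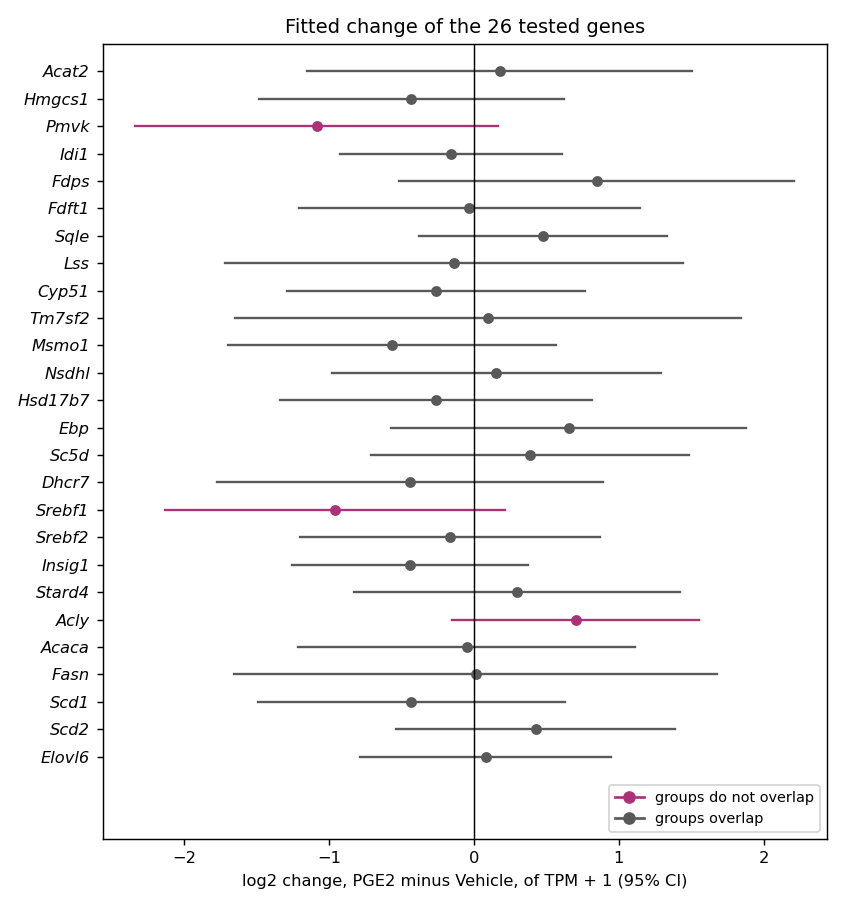
Fitted log2 change (PGE2 minus Vehicle, of TPM + 1; point) with its 95% confidence interval (line) for the 26 tested genes, in pathway order. All intervals include 0; the 3 genes whose groups do not overlap, Pmvk, Srebf1 and Acly, are coloured, with Pmvk the lowest at -1.09.

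The libraries were uneven within a group. Between 15400 and 19677 genes were listed above 0 per library, mitochondrial genes held 20.9% to 33.6% of the TPM, and the median correlation with the other libraries of the same group was 0.897 to 0.917 in Vehicle and 0.815 to 0.835 in PGE2 (Pearson's r of log2 values across tested genes, which are not independent replicates). All 8 muscle stem cell markers looked at were tested, which takes only 1 TPM in 3 libraries, with Pax7 between 23.9 and 67.0 TPM. By mean level, the lowest of them were Cdh15 (0 to 5.15 TPM) and Itga7 (2.69 to 13.2 TPM), and the highest was Sdc4 (184 to 363 TPM). Adipocyte markers, of a cell type rich in these enzymes, were near 0, with Adipoq listed at 0 in all 6 libraries and a sum over 4 markers (Adipoq, Plin1, Cidec and Lep) of at most 0.63 TPM. The 4 leukocyte markers summed to 1.83 to 8.11 TPM in Vehicle and 6.32 to 12.6 TPM in PGE2, and the 4 differentiated muscle markers to 4.84 to 11.1 and 0.90 to 3.47 TPM in the same order. The 3 endothelial markers summed to 1.35 to 2.71 TPM over all libraries and the 3 fibro-adipogenic markers to 0 to 13.7 TPM. That highest fibro-adipogenic sum, in PGE2 2, was almost all Ly6a (13.55 TPM), with Pdgfra at 0.18 TPM and Dpt at 0 TPM. The part of these other cell types in the values below was not tested, and in bulk RNA fewer cells of a type cannot be told from less RNA per cell.

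Mean levels along the pathway ran from 0.487 TPM (Mvd) to 53.1 TPM (Idi1). The tested genes had a median mean level of 8.96 TPM, beside 9.72 TPM for all tested genes, and 12 of 26 lay above that value. The most abundant were Idi1 (mean over 6 libraries 53.1 TPM), Acly (43.8 TPM), Insig1 (36.4 TPM), Fasn (21.4 TPM) and Sqle (16.8 TPM). The mean of 8 genes was under 5 TPM.

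**Figure D2:**
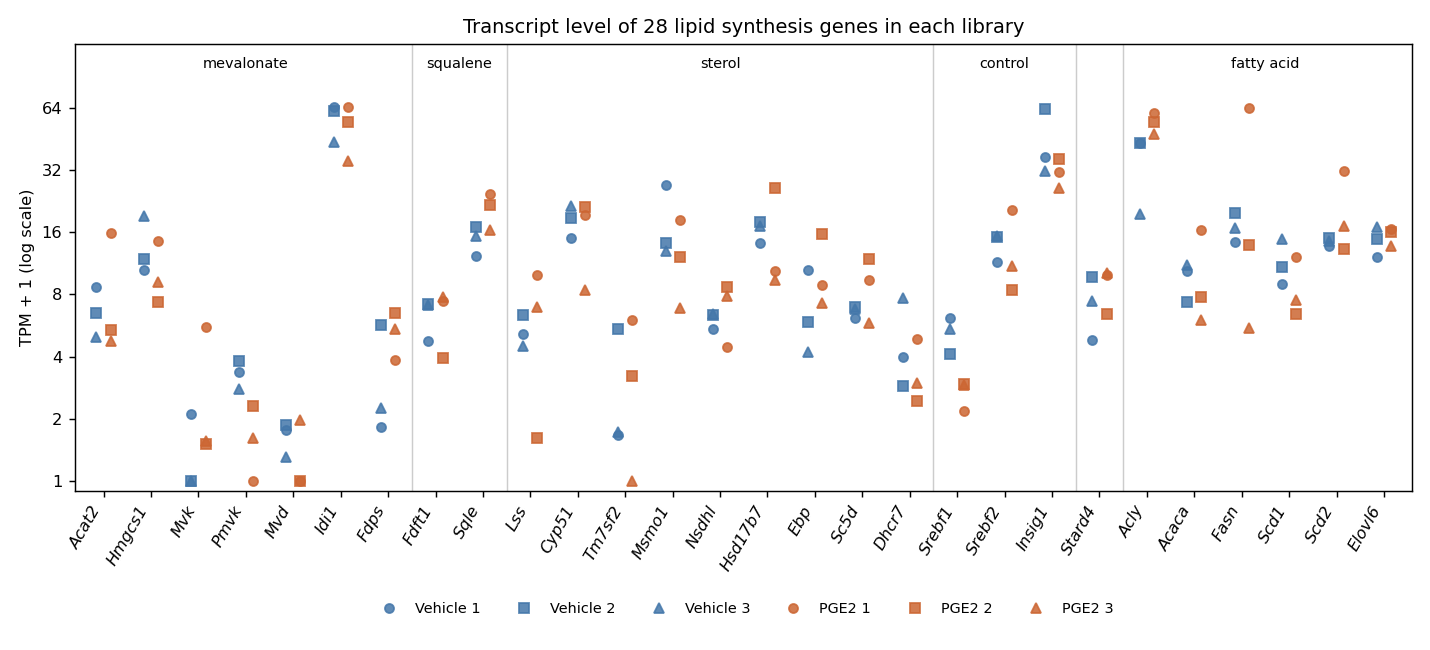
Level of each of the 28 genes in each library (y axis, TPM + 1 on a log scale), with Vehicle in blue, PGE2 in orange and a marker shape per library number; the column between control and fatty acid genes is Stard4. Idi1, Insig1 and Acly lie highest, Mvk and Mvd lowest, and Fasn has its points at 62.8, 12.9 and 4.50 TPM in PGE2.

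In the mevalonate steps, Hmgcs1, which joins acetoacetyl-CoA and acetyl-CoA to HMG-CoA (chromosome 13, 119690379 to 119708260 in GRCm38, the build of all positions here), read 9.50, 10.9 and 18.3 TPM in Vehicle 1 to 3, against 13.5, 6.35 and 8.16 TPM with PGE2 1 to 3. The groups overlapped, with PGE2 2 and PGE2 3 below all Vehicle libraries, and the log2 change was -0.43 (95% confidence interval -1.49 to 0.62), from -0.71 without PGE2 1 to -0.17 without Vehicle 3. Antisense transcript Gm48342 overlaps 12.1% of the exonic bases of Hmgcs1, and whether counting used strand is not given in the sources used here. Acat2, the cytosolic thiolase that makes acetoacetyl-CoA, read 7.66, 5.53 and 3.96 TPM in Vehicle against 14.9, 4.37 and 3.75 TPM with PGE2. PGE2 1 stood above and PGE2 2 within the Vehicle range of Acat2, and PGE2 3 was just below it.

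The kinases and the decarboxylase that follow were the lowest of the pathway. Mvk, the mevalonate kinase, read 1.12, 0 and 0 TPM in Vehicle against 4.55, 0.51 and 0.56 TPM with PGE2, and Mvd, the mevalonate diphosphate decarboxylase, stayed at or below 0.98 TPM. Both were below the level set for testing. Pmvk, the phosphomevalonate kinase between them (chromosome 3, 89454541 to 89469013), read 2.37, 2.79 and 1.78 TPM in Vehicle against 0, 1.31 and 0.61 TPM with PGE2. Every PGE2 library was below every Vehicle library. The 0 of PGE2 1 may be an estimate that failed, which was not tested. PGE2 1 was also the library with the fewest genes above 0 (15400). The log2 change of Pmvk was -1.09 (95% confidence interval -2.34 to 0.16), with a limma p of 0.0819 before and a Benjamini-Hochberg adjusted p of 1.00 after adjustment. At this level the size depended on the pseudocount, from -2.36 with 0.1 to -0.38 with 5, and without PGE2 2 it was -1.37 with an unadjusted limma p of 0.0459 (adjusted 0.711 or more in all alternatives).

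Idi1, the isomerase that makes dimethylallyl diphosphate (chromosome 13, 8885501 to 8892451), was the most abundant of the 28 and read 63.5, 60.5 and 42.8 TPM in Vehicle against 63.5, 53.7 and 34.5 TPM with PGE2. Its log2 change of -0.16 had an interval of -0.92 to 0.61. Gm48574, on the other strand, overlaps 9.22% of the exonic bases of Idi1. Fdps, which builds farnesyl diphosphate, read 0.82, 4.66 and 1.26 TPM in Vehicle against 2.87, 5.47 and 4.43 TPM with PGE2, with Vehicle 2 inside the PGE2 range. It had the highest fitted value of the set, 0.85 (95% confidence interval -0.51 to 2.21), from 0.52 without Vehicle 1 to 1.34 without Vehicle 2. Of the exonic bases of Fdps, 26.7% are shared with the gene model Gm43738 on the same strand, so its level is uncertain.

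At the branch to sterols, Sqle, the squalene epoxidase and a rate-controlling enzyme (chromosome 15, 59315077 to 59331192), read 11.3, 16.02 and 14.3 TPM in Vehicle against 23.5, 20.5 and 15.4 TPM with PGE2. PGE2 1 and PGE2 2 were above all Vehicle libraries and PGE2 3 was within their range. The mean was 13.9 ± 2.38 TPM in Vehicle and 19.8 ± 4.09 TPM in PGE2 (SD, n = 3 each), and the log2 change was 0.48 (95% confidence interval -0.38 to 1.33). Fdft1, the squalene synthase one step before it, read 3.78, 6.16 and 6.10 TPM in Vehicle against 6.40, 2.96 and 6.77 TPM with PGE2. The groups overlapped, with a log2 change of -0.03 (95% confidence interval -1.21 to 1.14). Of the exonic bases of Fdft1, 18.3% overlap Ctsb on the other strand, so its reads may be shared with that gene.

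All 9 enzyme genes from lanosterol formation onward were tested. The fitted value was above 0 for 4 of them and below 0 for 5, with a median log2 change of -0.14. Lss, which closes squalene epoxide to lanosterol, read 4.16, 5.34 and 3.51 TPM in Vehicle against 8.92, 0.61 and 5.95 TPM with PGE2. The PGE2 libraries thus lay on both sides of the Vehicle range. Cyp51, the lanosterol demethylase, read 13.9, 17.6 and 20.5 TPM in Vehicle against 18.5, 20.2 and 7.39 TPM with PGE2, with PGE2 3 the lowest. Msmo1, the C4-methyl oxidase, read 26.1, 13.1 and 11.9 TPM in Vehicle against 17.3, 11.2 and 5.85 TPM with PGE2.

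Nsdhl and Hsd17b7 act with Msmo1 in removing the C4 methyl groups. Nsdhl, the dehydrogenase, read 4.43, 5.33 and 5.41 TPM in Vehicle against 3.44, 7.71 and 6.84 TPM with PGE2. Hsd17b7, the reductase, read 13.1, 16.9 and 16.2 TPM in Vehicle against 9.32, 25.2 and 8.34 TPM with PGE2. For both genes the Vehicle libraries sat inside the PGE2 range. Of the late enzymes, Ebp, the sterol isomerase, read 9.54, 4.90 and 3.22 TPM in Vehicle against 7.88, 14.8 and 6.29 TPM with PGE2. Sc5d, the desaturase, read 5.12, 5.95 and 5.78 TPM in Vehicle against 8.36, 10.9 and 4.79 TPM with PGE2. Dhcr7, the last reductase of one route to cholesterol, read 3.00, 1.89 and 6.64 TPM in Vehicle against 3.85, 1.43 and 1.99 TPM with PGE2. These 3 overlapped between the groups, with log2 changes of 0.65 for Ebp (95% confidence interval -0.57 to 1.88), 0.39 for Sc5d (-0.71 to 1.48) and -0.44 for Dhcr7 (-1.77 to 0.89). With 1 library left out they ran from 0.33 (without PGE2 2) to 1.01 (without Vehicle 1) for Ebp, from 0.16 (without PGE2 2) to 0.67 (without PGE2 3) for Sc5d and from -0.75 (without Vehicle 2) to -0.053 (without Vehicle 3) for Dhcr7. Tm7sf2, a sterol C14-reductase, read 0.67, 4.45 and 0.73 TPM in Vehicle against 5.03, 2.21 and 0 TPM with PGE2, and its sign differed between settings. Of the exonic bases of Tm7sf2, 12.1% are shared with Vps51 on the same strand, so its level is uncertain.

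Summed over the 17 enzymes from Hmgcs1 to Dhcr7, the branch held 173, 177 and 159 TPM in Vehicle against 197, 185 and 119 TPM with PGE2. The means were 169.8 ± 9.82 and 166.9 ± 42.0 TPM (SD, n = 3 each), a difference smaller than the spread between the PGE2 libraries. PGE2 minus Vehicle was -2.89 TPM with all libraries, -17.9 TPM without PGE2 1 and 21.1 TPM without PGE2 3. Idi1 was the largest single contributor to that sum in all 6 libraries.

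Among the control genes, Srebf1, which encodes SREBP-1, the form that mainly drives fatty acid genes (chromosome 11, 60199089 to 60222581), read 5.13, 3.13 and 4.42 TPM in Vehicle against 1.18, 1.95 and 1.91 TPM with PGE2. Every PGE2 library was below every Vehicle library. The mean was 4.23 ± 1.01 TPM in Vehicle and 1.68 ± 0.43 TPM in PGE2 (SD, n = 3 each). The log2 change was -0.96 (95% confidence interval -2.13 to 0.21), 1.94-fold lower as fitted on log2(TPM + 1), with a limma p of 0.0982 before and a Benjamini-Hochberg adjusted p of 1.00 after adjustment. Its size also depended on the pseudocount, from -1.29 with 0.1 to -0.46 with 5. The table does not separate the transcripts that start at different promoters of Srebf1.

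Srebf2, which encodes SREBP-2, the form that mainly drives sterol genes (chromosome 15, 82147181 to 82205379), read 10.5, 14.2 and 14.2 TPM in Vehicle against 19.6, 7.44 and 9.93 TPM with PGE2. The PGE2 libraries lay on both sides of the Vehicle range, and the log2 change was -0.16 (95% confidence interval -1.20 to 0.87). Srebf2 was above Srebf1 in all 6 libraries, by 2.04, 4.55 and 3.22 times in Vehicle and by 16.6, 3.82 and 5.2 times in PGE2. Insig1, the sterol-regulated anchor that is itself an SREBP target (chromosome 5, 28071363 to 28078662), read 35.9, 61.8 and 30.8 TPM in Vehicle against 30.2, 35.0 and 25.1 TPM with PGE2. Vehicle 2 stood highest, the other libraries overlapped, and the log2 change was -0.44 (95% confidence interval -1.26 to 0.37), and -0.15 without Vehicle 2. Stard4, a carrier of cholesterol through the cytosol and also an SREBP target, read 3.8, 8.66 and 6.46 TPM in Vehicle against 8.87, 5.40 and 9.17 TPM with PGE2, with a log2 change of 0.30 (95% confidence interval -0.83 to 1.42), and of 0.024 without Vehicle 1 and 0.53 without Vehicle 2.

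In the fatty acid branch, Acly, the ATP citrate lyase that releases acetyl-CoA from citrate in the cytosol (chromosome 11, 100476353 to 100528000), read 42.2, 42.0 and 18.6 TPM in Vehicle against 59.0, 53.8 and 46.9 TPM with PGE2. Every PGE2 library was above every Vehicle library, and Vehicle 3 stood far below the other Vehicle libraries. The mean was 34.3 ± 13.6 TPM in Vehicle and 53.2 ± 6.05 TPM in PGE2 (SD, n = 3 each). The log2 change was 0.70 (95% confidence interval -0.15 to 1.55), with a limma p of 0.0955 before and a Benjamini-Hochberg adjusted p of 1.00 after adjustment. Without Vehicle 3 it was 0.32.

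Fasn, the fatty acid synthase (chromosome 11, 120805846 to 120824547), read 13.3, 18.9 and 15.7 TPM in Vehicle against 62.8, 12.9 and 4.50 TPM with PGE2. PGE2 1 was the highest and PGE2 3 the lowest of all 6 libraries. On the log2(TPM + 1) scale the SD was 0.24 in Vehicle and 1.79 in PGE2, and among 6303 genes averaging at least 10 TPM, 3.46% had a larger SD in PGE2. The log2 change was 0.01 (95% confidence interval -1.65 to 1.68), and it was -0.94 without PGE2 1 and 0.83 without PGE2 3.

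Acaca, the acetyl-CoA carboxylase that makes malonyl-CoA, read 9.34, 6.37 and 10.1 TPM in Vehicle against 15.4, 6.74 and 5 TPM with PGE2. It had its extremes in the same libraries as Fasn, PGE2 1 and PGE2 3. Scd1 and Scd2 encode desaturases that make monounsaturated fatty acids. Scd1 read 7.99, 9.82 and 13.8 TPM in Vehicle against 11.1, 5.45 and 6.51 TPM with PGE2, with a log2 change of -0.43 (95% confidence interval -1.49 to 0.63), from -0.70 without PGE2 1 to -0.24 without Vehicle 3. Scd2 read 12.7, 14.03 and 13.4 TPM in Vehicle against 30.7, 12.3 and 16.2 TPM with PGE2, with a log2 change of 0.43 (95% confidence interval -0.53 to 1.39), and of 0.070 without PGE2 1 and 0.70 without PGE2 2. Scd2 was above Scd1 in 5 of 6 libraries, by 2.25 to 2.77 times in PGE2 and 0.976 to 1.59 times in Vehicle. Elovl6, which lengthens palmitate, was even across libraries at 11.1, 13.9 and 16.03 TPM in Vehicle against 15.5, 15 and 12.7 TPM with PGE2.

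The 6 fatty acid genes summed to 96.6, 105 and 87.7 TPM in Vehicle against 194, 106 and 91.8 TPM with PGE2. The means were 96.4 ± 8.65 and 130.8 ± 55.6 TPM (SD, n = 3 each), and without PGE2 1 the PGE2 mean was 99.0 TPM. Fasn made up 32.3% of the sum in that library.

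**Figure D3:**
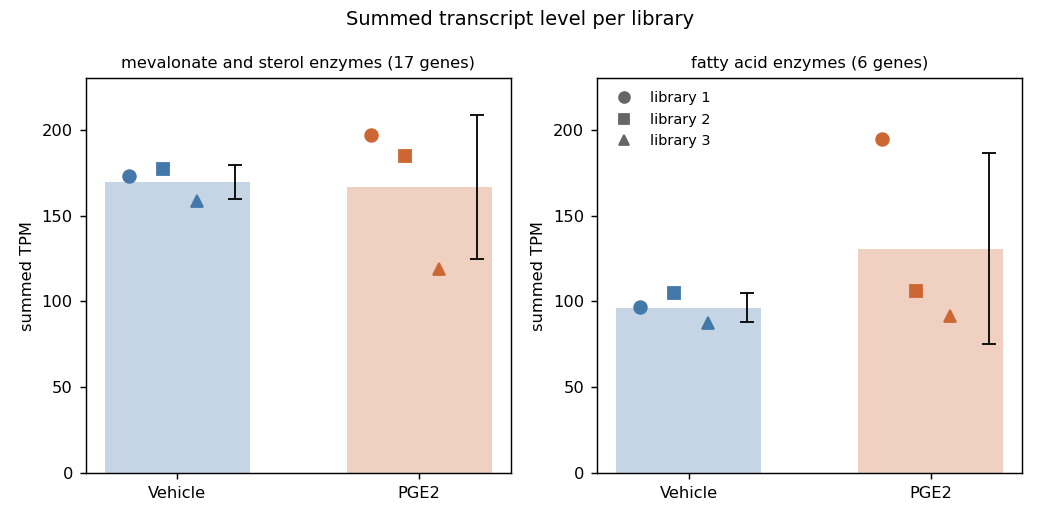
Summed TPM (y axis) of the 17 mevalonate and sterol enzymes (left) and of the 6 fatty acid genes (right), with a point per library, bars for the group mean and whiskers for ± 1 SD (n = 3). The fatty acid sum of PGE2 1, 194 TPM, stands above the other 5 libraries, which lie between 87.7 and 106 TPM.

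PGE2 1 was the highest of the 6 libraries for 9 of the 26 tested genes (34.6%), beside 30.1% of all tested genes. Of the 6 fatty acid genes it was the highest for 4, Acly, Acaca, Fasn and Scd2. PGE2 3 was the lowest for 10 of 26 (38.5%), beside 23.2% of all tested genes. The SD on the log2 scale was larger in PGE2 than in Vehicle for 18 of 26 (69.2%), as for 69.5% of all tested genes.

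**Figure D4:**
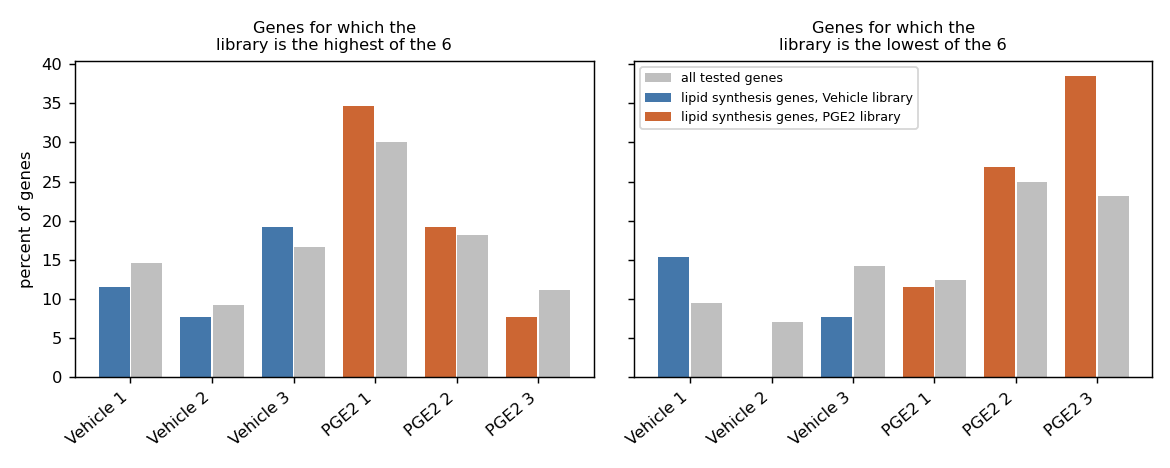
Share of genes (y axis, percent) for which a library was the highest (left) or the lowest (right) of the 6, for the 26 tested lipid synthesis genes (coloured) and all 12781 tested genes (grey). PGE2 1 is most often the highest in both sets, at 34.6% and 30.1%.

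Other genes of lipid supply and handling, a list of 28 that includes SREBP processing, acyl-CoA synthesis, desaturation and sterol export, gave the same count of calls. Of them 23 were tested, 0 passed limma's test over all genes (Benjamini-Hochberg) and 0 had an unadjusted p under 0.05, with 13 higher and 10 lower and a median log2 change of 0.16. That median was -0.18 without PGE2 1, 0.0021 without Vehicle 1 and 0.012 with array weights. Fads2, the delta-6 desaturase of polyunsaturated fatty acids, was the member of that list whose groups did not overlap (1 of 23, 4.35%, with PGE2 higher, beside 3.18% of all tested genes, a share near the background). It read 0.60, 1.44 and 1.44 TPM in Vehicle against 2.56, 1.65 and 4.21 TPM with PGE2, with a log2 change of 0.79 (95% confidence interval -0.45 to 2.03).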

How the data were processed

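RNA sequencing of 6 libraries was used, 3 per group. The authors deposited TPM for each library. The unit is not in the header and was inferred from column sums of 992357 to 995645. STAR, RSEM and build mm10 appear in the submitters' processing notes; no source used here gives versions, settings or annotation. Depth is unknown, and intervals rest on the spread between libraries. The design named limma on log2(TPM + 1) for such a unit. A gene was tested where 3 or more libraries had at least 1 TPM (12781 of 43283) with limma 3.58.1 in R 4.3.3 (trended variance prior, two-sided, Benjamini-Hochberg over all tested genes, threshold 0.05), checked on simulated data with 200 changed genes of 5 TPM or more. Changes are on the log2(TPM + 1) scale, which understates those of low genes. Positions and exon overlaps came from GENCODE M21 (same build) and promoters from RefSeq. Tables and figures were made in Python 3.11.15. All 28 genes may be named, and of the other lipid genes those with an unadjusted p under 0.05 or no overlap. The genes, lists and tests were chosen with earlier results of these data known. Alternatives covered the pseudocount, filter, scaling, variance prior, weights, replicate block and each library left out; count tests were not run on TPM. A further marker list is not reported here.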

Additional observations from a re-analysis of the deposited data

How the results depend on the processing

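Under 16 alternatives no gene of the set or of the other lipid genes passed limma's test (smallest Benjamini-Hochberg adjusted p of the set 0.652). Over all genes the count was 1 with a robust variance prior and 0 to 2 with a library left out. The set's median log2 change ran from -0.41 (without PGE2 1) to 0.13 (without PGE2 3). PGE2 minus Vehicle of the summed mevalonate and sterol enzymes ran from -17.9 to 21.1 TPM with a library left out (0.91 without Vehicle 2) and was 1.40 TPM after median-ratio scaling; that of the fatty acid genes ran from 2.55 to 53.9 TPM. With the shorter element CACNCCAC, 3 promoters matched instead of 1 (13.6%, beside 7.53% of tested genes). With the replicate number as a block (replicate block) 0 genes passed; deviations of same-numbered libraries correlated at -0.06, -0.04 and 0.07, so the numbers were not taken as pairs, and not every library correlated best with its own number. Of 26 tested genes, 14 kept their direction in every alternative run and 12 did not; causes were not tested. Tm7sf2 was -0.43 with a pseudocount of 0.1 and -0.69 with array weights, Fasn -0.032, -0.50 and, rescaled without mitochondrial genes, -0.028, Acat2 -0.049 with array weights, Lss 0.028 with a pseudocount of 5 and Fdft1 0.014 after median-ratio scaling. With each library left out, the log2 change ran from -0.37 to 0.50 for Acat2, -0.34 to 0.090 for Idi1, -0.22 to 0.28 for Fdft1, -0.66 to 0.65 for Lss, -0.50 to 0.16 for Cyp51, -0.48 to 0.81 for Tm7sf2, -0.034 to 0.45 for Nsdhl, -0.73 to 0.011 for Hsd17b7, -0.53 to 0.11 for Srebf2, -0.47 to 0.25 for Acaca, -0.94 to 0.83 for Fasn and -0.052 to 0.20 for Elovl6. A filter of 5 TPM left out Pmvk, Srebf1, Fdps, Tm7sf2 and Dhcr7, which then have no value. Tests with read counts were not run.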
